A study of Mus musculus with 4 samples.

Results

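The genes described here are 46 members of BMP and TGF-beta signalling, chosen by name: ligands, their extracellular processing enzymes and binding proteins, receptors, Smads, antagonists and target genes. Of these, 45 had a probe set annotated to that gene alone, out of 18193 such genes on the array, and Bmp3 was not analysed here. Where a gene had several probe sets, the one with the highest mean over the 4 arrays stands for it. A pair of sublines was compared. The GIC (glioma-initiating cell-like) subline is tumorigenic per the labels and was measured on 2 arrays, and the non-GIC subline is nontumorigenic and was also measured on 2 arrays. Both derive from neural stem cells of the telencephalon of p53-/- C57BL/6 embryos at embryonic day 14.5. Both carry the plasmid pCMS-EGFP-HRasL61, which encodes GFP and an activated HRas, were selected in neomycin with pBabe-neo and were sorted for GFP. They were expanded as floating spheres in serum-free medium with PDGF, bFGF and forskolin. Each group is 1 subline, so any other difference between the sublines goes along with tumorigenicity, and no label states whether replicates were grown as separate cultures, which means that each p-value reflects the spread among these 4 samples alone, and that spread may be technical.

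BMPs and TGF-betas are secreted dimers that bind a complex of type II and type I receptor kinases. The activated type I receptor phosphorylates receptor-activated Smads, which join Smad4 and act on target genes in the nucleus. BMP receptors act mainly on Smad1, Smad5 and Smad9, and TGF-beta and activin receptors on Smad2 and Smad3. In the developing brain, BMPs favour astrocyte over neuron formation and raise the Id genes, whose products block neurogenic bHLH factors. Secreted antagonists such as Noggin hold ligands away from their receptors.

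The members included 4 well-known direct targets of BMP signalling whose upstream sequence is given here. They are followed below together with Id1, for which no upstream sequence was at hand, in a group formed after the values were seen. The 250 bases before the annotated start were taken from RefSeq (build GRCm38.p6), in which 32 of the members had an entry. The windows are chr12:25096093-25096342 on the minus strand for Id2, chr4:136143572-136143821 on the plus strand for Id3, chr13:48260866-48261115 on the plus strand for Id4 and chr9:64022060-64022309 on the minus strand for Smad6. Capitals mark GGCGCC, a GC-rich Smad-binding motif that reads the same on both strands, and CAGAC or its complement GTCTG, the core of the classical Smad-binding element.
Id2: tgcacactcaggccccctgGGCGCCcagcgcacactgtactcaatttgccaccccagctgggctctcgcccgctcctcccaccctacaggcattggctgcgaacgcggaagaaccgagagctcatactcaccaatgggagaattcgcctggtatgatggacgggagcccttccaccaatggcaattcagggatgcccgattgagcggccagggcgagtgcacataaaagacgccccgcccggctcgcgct
Id3: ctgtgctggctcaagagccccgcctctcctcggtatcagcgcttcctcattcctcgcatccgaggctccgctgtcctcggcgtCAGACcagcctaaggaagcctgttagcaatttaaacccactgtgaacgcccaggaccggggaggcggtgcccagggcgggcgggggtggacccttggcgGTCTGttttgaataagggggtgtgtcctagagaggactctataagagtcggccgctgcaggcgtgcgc
Id4: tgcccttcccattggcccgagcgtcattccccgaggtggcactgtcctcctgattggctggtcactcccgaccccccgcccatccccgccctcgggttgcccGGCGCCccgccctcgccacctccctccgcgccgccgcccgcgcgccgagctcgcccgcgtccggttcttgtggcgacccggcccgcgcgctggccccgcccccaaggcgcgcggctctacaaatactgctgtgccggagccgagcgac
Smad6: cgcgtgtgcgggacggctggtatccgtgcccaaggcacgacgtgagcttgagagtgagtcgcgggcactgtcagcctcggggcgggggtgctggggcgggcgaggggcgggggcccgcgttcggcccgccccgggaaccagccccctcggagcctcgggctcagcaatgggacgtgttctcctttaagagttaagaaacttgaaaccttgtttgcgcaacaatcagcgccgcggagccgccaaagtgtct
Id2 and Id4 each held 1 GGCGCC and no CAGAC, Id3 held 2 CAGAC and no GGCGCC, and the Smad6 window held neither. Among the 38 windows of the members, which come from 32 genes, 28.9% held GGCGCC and 47.4% held CAGAC on either strand. Among the 250 bases before the start of all 32851 entries the shares were 9.59% for GGCGCC and 42.2% for CAGAC. The shares were not tested or adjusted for base composition, and the 4 printed windows held 62.8% to 75.6% G or C. These matches describe the letters in the window and do not locate a bound site.

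The deposited values are log2 signals with array medians of 6.58 to 6.63. Testing required a signal above 5.97 (the 40th percentile of the table) on 2 or more arrays, which 13366 genes passed, 40 members among them. Below that level were Bmp5, Bmpr1b, Acvrl1, Smad9 and the BMP antagonist Nog, with values between 4.56 and 5.82 on all arrays. Of 10 neural stem cell markers, 9 passed the filter, with Prom1 below it, and Nes and Fabp7 were lower in GIC at an adjusted p under 0.05. Fabp7 passed the filter only through its non-GIC arrays, with 5.23 on both GIC arrays. Of 8 endothelial markers, Pecam1, Cdh5, Tek, Tie1 and Emcn, 5 in all, lay below the filter, whereas Kdr, Cldn5 and Flt1 lay above it. Flt1 had 9.37 and 9.18 in GIC and 8.64 and 8.08 in non-GIC and did not pass the test (limma adjusted p = 0.165). The mean signal per array of the 8 markers was 5.98 and 5.89 in GIC and 5.89 and 5.81 in non-GIC. The 8 mural and fibroblast markers had mean signals of 9.11 and 8.44 in GIC and 8.71 and 8.63 in non-GIC. These means cover unlike markers: of the 6 tested, 3 had a positive and 3 a negative log2 fold change. They ranged from -2.06 (Col1a1, 13.59 and 10.70 in GIC, 13.84 and 14.57 in non-GIC) to 1.26 (Col1a2), and none passed. The part of either list in the results below, those for Eng among them, was not tested.

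In all, 3 members rose in GIC and none fell. They were the ligand Bmp2 (7.58-fold between the measured signals, with both non-GIC values below the filter level), the co-receptor Tgfbr3 (5.11-fold) and the type I activin receptor Acvr1b (2.55-fold). This is 7.5% of the 40 tested members, beside 1.92% of all tested genes called in either direction (1.23% higher and 0.688% lower in GIC), at an adjusted p under 0.05 in limma's moderated test. Bmp2 and Bmp6 passed the filter only through their GIC arrays. Of the 38 tested members with an array above the filter level in each subline, 2 rose (5.26%), beside 1.3% of the 13107 such genes called in either direction. Since RNA came from many cells, more cells with a transcript and more of it per cell cannot be told apart. At an unadjusted p under 0.05 there were 15 members, 10 higher and 5 lower in GIC (37.5%, beside 17.9% of all tested genes). A difference of at least 2-fold was found in 7 members higher in GIC (17.5%, beside 4.37%) and in 1 lower, Grem1 (2.5%, beside 2.26%). Differences above 0 were found in 25 members (62.5%, beside 48.5%). The median log2 fold change was 0.31 over the tested members and -0.01 over all tested genes, and the median size of the difference was 0.54 and 0.21. The groups did not overlap in 26 of 40 members (65.0%, beside 50.4% of all tested genes). All of these shares are descriptions without a test of the list, since the members were chosen with earlier results of these arrays known. With either non-GIC array left out, the calls of Bmp2, Tgfbr3 and Acvr1b were all lost, and fewer of all tested genes passed. The members' median was 0.078 without non-GIC replicate 1, beside 0.007 over all tested genes. It was 0.46 without non-GIC replicate 2, beside -0.02.

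**Figure D1:**
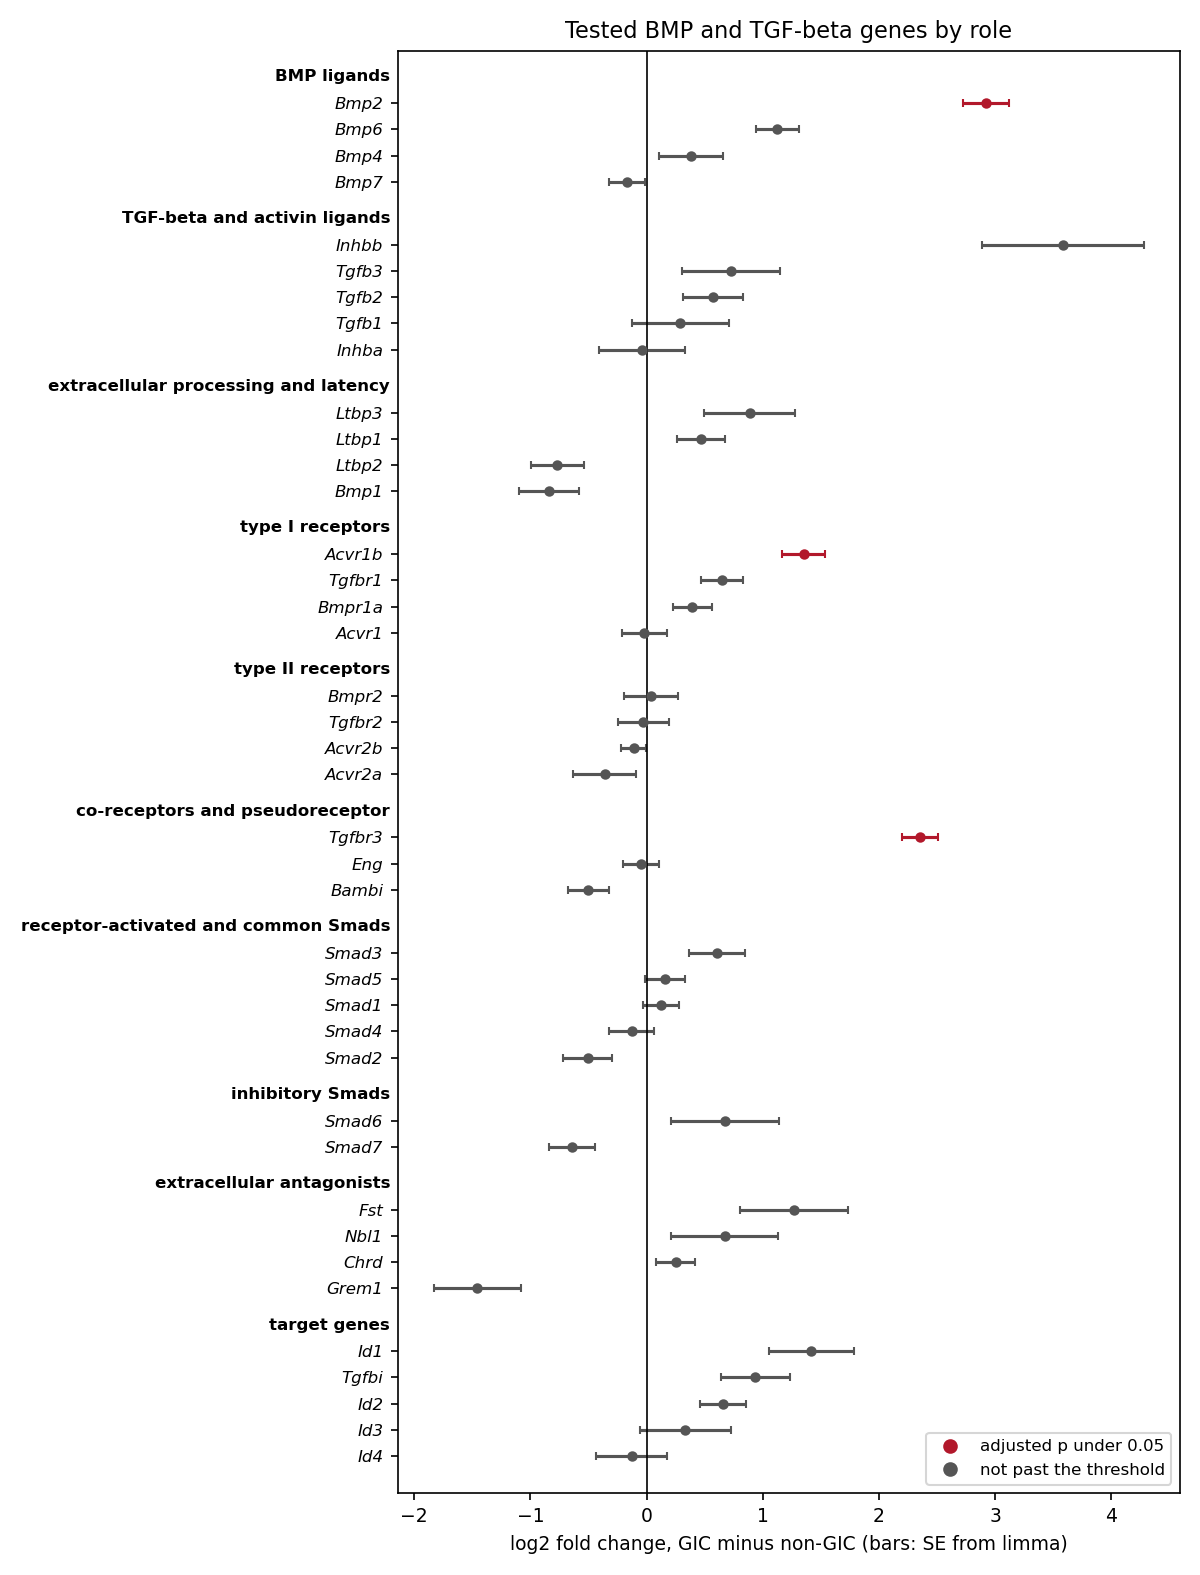
Log2 fold change (GIC minus non-GIC) of the 40 tested members, grouped by role, with SE bars from limma (2 arrays per subline) and red points at an adjusted p under 0.05. Bmp2, Acvr1b and Tgfbr3 are the red points, and Inhbb lies farther right than Bmp2 with a bar more than 3 times as long.

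Bmp2, a BMP ligand known to induce astrocyte formation and bone, had the smallest p among the ligands. Its signal was 7.51 and 8.00 in GIC, against 4.71 and 4.95 in non-GIC (log2). Both non-GIC values lie below the filter level, where the signal can flatten, and Bmp2 was tested only because its GIC arrays lie above it. Set against the filter level itself, the GIC mean was 3.44-fold higher. The log2 fold change between the measured signals was 2.92 (SE 0.20, limma adjusted p = 0.0137). Leaving out GIC replicate 1 or 2 kept it past the threshold (adjusted p = 0.028 and 0.0263), whereas leaving out non-GIC replicate 1 or 2 did not (adjusted p = 0.0815 and 0.0631), with differences between 2.68 and 3.17 in all 4 cases. Bmp6, a ligand of the same receptor system best known in iron metabolism, had 6.26 and 6.58 in GIC and 5.49 and 5.10 in non-GIC. Both non-GIC values again lie below the filter level. The groups did not overlap, but the log2 fold change of 1.12 (SE 0.19) did not pass (limma adjusted p = 0.0747). Bmp4, which patterns the dorsal telencephalon, had 8.77 and 8.76 in GIC and 8.02 and 8.74 in non-GIC. Only non-GIC replicate 1 stood apart for Bmp4. Bmp7 had a log2 fold change of -0.17 with overlapping groups.

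None of the 5 TGF-beta and activin ligands passed. Inhbb, the beta-B subunit of activin B and inhibin B, had the largest difference of all members by size. It had 11.56 and 10.56 in GIC and 6.56 and 8.39 in non-GIC. Both GIC arrays lay above both non-GIC arrays, but the non-GIC arrays differed from each other by 1.83. The log2 fold change was 3.59 (SE 0.70, limma adjusted p = 0.101), and it lay between 2.67 (non-GIC replicate 1 left out) and 4.50 (non-GIC replicate 2 left out). The other Inhbb probe set past the filter had 8.52 and 8.39 in GIC and 7.90 and 7.80 in non-GIC, a much smaller difference of 0.61. Inhba, the beta-A subunit of activin A, had 8.95 and 9.94 in GIC and 9.34 and 9.63 in non-GIC, with the groups interleaved. Tgfb2, the TGF-beta isoform prominent in embryonic brain, had 10.54 and 10.05 in GIC and 9.53 and 9.92 in non-GIC, and its difference of 0.57 did not pass (limma adjusted p = 0.343). Tgfb1 and Tgfb3 had log2 fold changes of 0.29 and 0.73, with GIC replicate 1 the highest array for both.

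**Figure D2:**
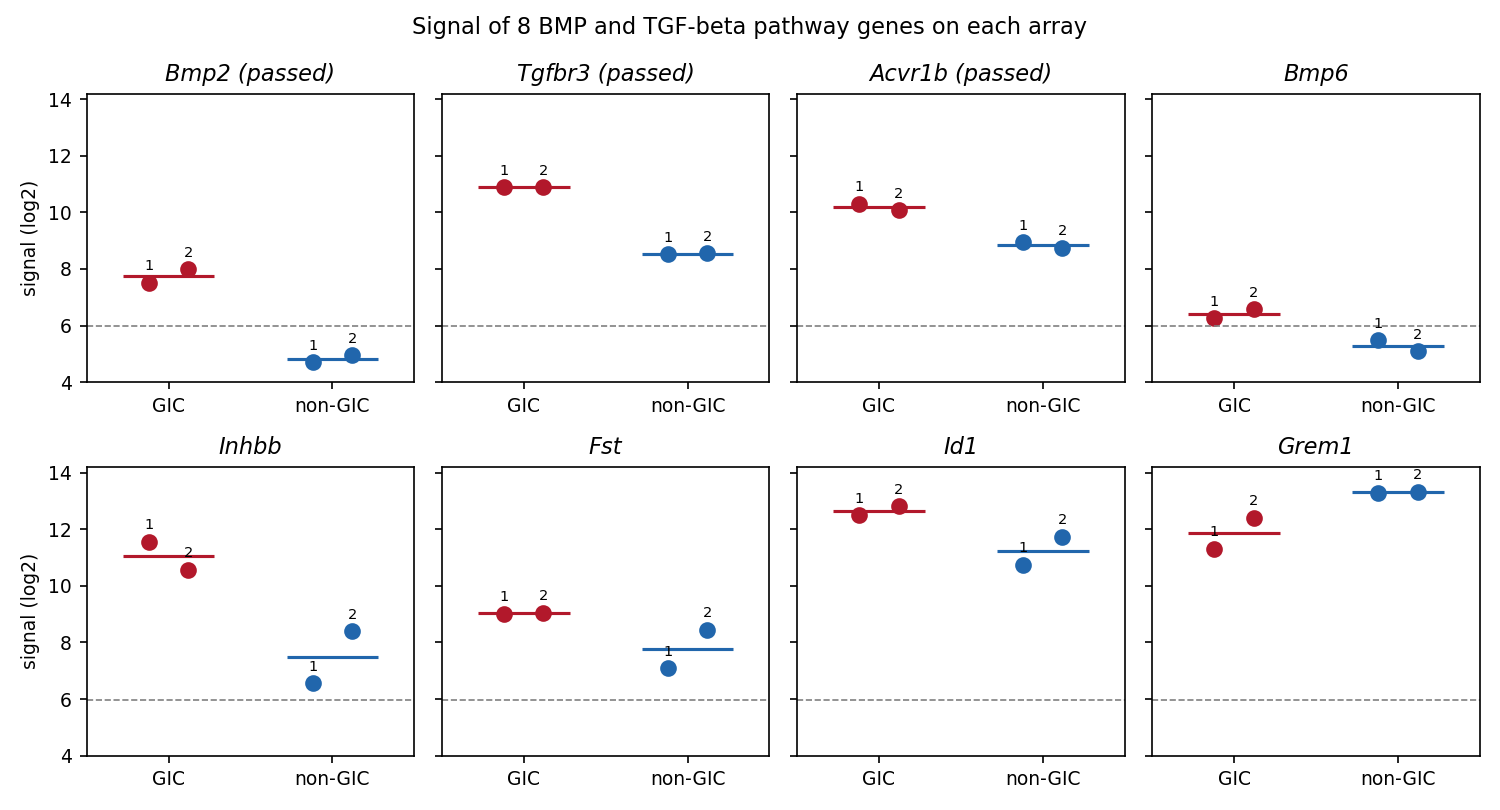
Signal (log2) of 8 members on the 2 GIC arrays (left, red) and the 2 non-GIC arrays (right, blue), with replicate numbers, a bar at each mean and the filter level of 5.97 dashed. The groups are separate for all 8 members. Of those that passed, replicates lie closest for Tgfbr3 and farthest apart for Bmp2 (0.48 between the GIC arrays). Inhbb, Fst and Id1 show a low non-GIC replicate 1 and Grem1 a low GIC replicate 1.

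Proteins that process or store the ligands did not pass in either direction. Bmp1 is not a BMP but a metalloprotease that cleaves procollagen and Chordin. It had 9.98 and 9.56 in GIC and 10.38 and 10.85 in non-GIC (log2 fold change -0.84, SE 0.26, limma adjusted p = 0.206), and its other probe sets had differences of -0.97 and -0.23. The latent TGF-beta binding proteins hold TGF-beta in the matrix. Among them, Ltbp2, which does not itself bind latent TGF-beta well and associates with fibrillin, had 6.80 and 6.25 in GIC and 7.44 and 7.16 in non-GIC (-0.77, adjusted p = 0.200). Ltbp1 and Ltbp3 pointed the other way, with log2 fold changes of 0.47 and 0.89. For Ltbp3 the values were 13.05 and 12.80 in GIC and 11.48 and 12.59 in non-GIC, and the difference was 0.33 without non-GIC replicate 1.

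Among type I receptors, Acvr1b (ALK4), which transmits activin and Nodal signals to Smad2 and Smad3, rose in GIC. It had 10.31 and 10.08 in GIC, against 8.94 and 8.74 in non-GIC. The replicates lay within 0.23 of each other and the log2 fold change was 1.35 (SE 0.18, limma adjusted p = 0.0483). This call is marginal. It was lost on leaving out any 1 array and with 5 of the other settings tried, quantile normalization among them (adjusted p = 0.0540), and the mean of its probe sets gave 0.73, since the other Acvr1b probe set had 7.05 and 7.16 in GIC and 7.14 and 6.84 in non-GIC. Tgfbr1 (ALK5), the TGF-beta type I receptor, had 10.44 and 10.16 in GIC and 9.58 and 9.71 in non-GIC. Its difference of 0.65 (SE 0.18) did not pass (limma adjusted p = 0.185), and its 2 other probe sets had 0.33 and 0.47. The BMP receptor Bmpr1a had a difference of 0.40, with 3 other probe sets past the filter between -0.20 and -0.09 and another at 0.14, and Acvr1 (ALK2) had one of -0.02.

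Type II receptors, which start the signal by phosphorylating type I receptors, differed little. The activin receptors had 8.88 and 8.48 in GIC and 8.76 and 9.32 in non-GIC for Acvr2a (limma adjusted p = 0.552), and 6.68 and 6.70 in GIC and 6.79 and 6.81 in non-GIC for Acvr2b (adjusted p = 0.653). Bmpr2 and Tgfbr2 had log2 fold changes of 0.04 and -0.03 with overlapping groups. These 4 differences lay between -0.36 and 0.04.

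Tgfbr3 (betaglycan), the co-receptor that presents TGF-beta2 to the signalling receptors and also binds inhibin, had the smallest p of all members. It had 10.89 and 10.89 in GIC, against 8.51 and 8.56 in non-GIC. Replicates of both sublines were nearly equal, and the log2 fold change was 2.35 (SE 0.16, limma adjusted p = 0.0127). Its other probe set had 8.84 and 9.05 in GIC and 7.25 and 7.12 in non-GIC, a difference of 1.76 in the same direction. Without non-GIC replicate 1 or 2 the difference was 2.33 or 2.38 and did not pass (adjusted p = 0.0998 and 0.0826). Endoglin (Eng), the related co-receptor, had a difference of -0.05. Bambi, a decoy receptor without a kinase domain that dampens BMP and TGF-beta signals, had 9.26 and 9.04 in GIC and 9.73 and 9.57 in non-GIC (-0.50, adjusted p = 0.254).

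**Figure D3:**
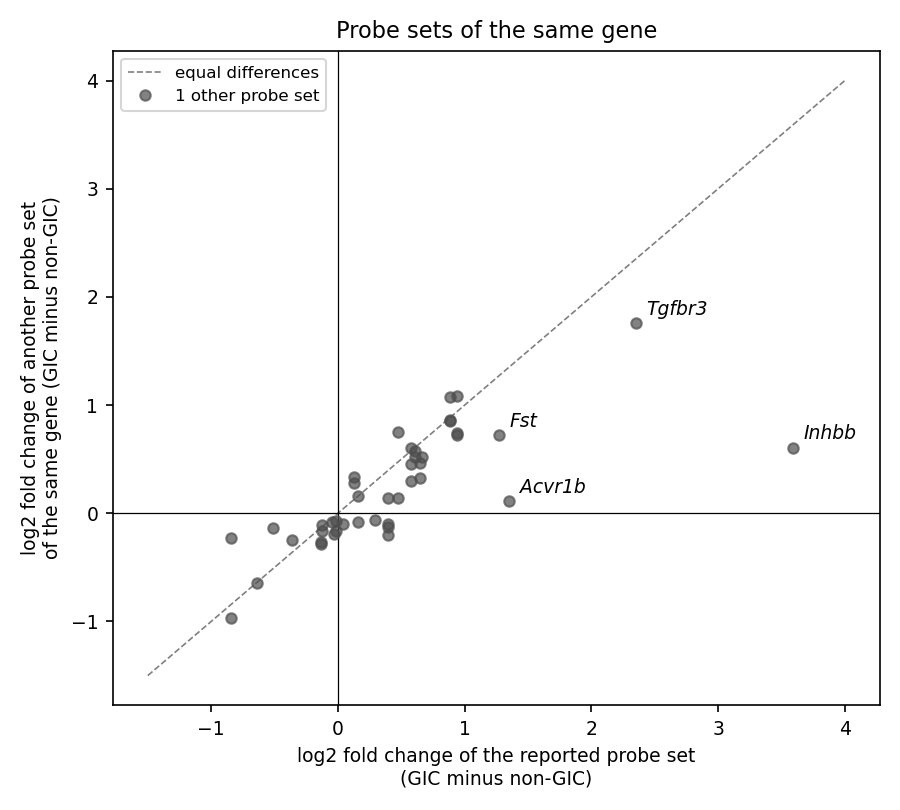
Log2 fold change (GIC minus non-GIC) of the reported probe set of each tested member (x axis) against that of every other probe set of the same gene with at least 2 arrays above the filter level (y axis), 43 probe sets of 25 genes. The Tgfbr3, Fst, Acvr1b and Inhbb points all lie below the dashed line of equal differences, Inhbb and Acvr1b farthest from it.

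The other probe sets of a gene were read on the same arrays, so they check the probe set and not the difference between the sublines. Of 43 other probe sets past the filter, 37 had the sign of the reported one and 6 the opposite sign. Where the reported difference was at least 0.5 in size, all 22 other probe sets of 13 genes had the same sign. That limit was set on the reported probe set itself. Those 22 include Acvr1b at 0.11 and Smad2 at -0.13, both with overlapping groups. The share of equal signs over all genes was not computed. The 6 exceptions belong to Bmpr1a, Bmpr2, Smad5 and Tgfb1, whose reported differences were 0.40 or less. Among the tested members, Bmp2, Bmp4, Bmp6, Tgfb3, Ltbp2, Bambi, Smad6, Chrd, Grem1, Nbl1, Id1 and Id3 had no other probe set annotated to that gene alone. The reported probe sets of Tgfb2, Ltbp3, Eng, Smad2, Grem1, Id1, Id2 and Tgfbi are of types that may bind more than 1 transcript. Without such probe sets 36 members were tested, and Eng, Grem1, Id1 and Id2 were not among them.

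No Smad passed. Smad3, which carries TGF-beta and activin signals, had 10.91 and 10.36 in GIC and 10.09 and 9.97 in non-GIC (0.61, limma adjusted p = 0.294). Smad2, its close partner in the same branch, had 10.24 and 10.03 in GIC and 10.83 and 10.45 in non-GIC (-0.51, adjusted p = 0.305). On these probe sets the groups did not overlap for either gene, and the differences pointed in opposite directions. The reported Smad2 probe set is of a type that may bind more than 1 transcript, which can be transcripts of the same gene. The other Smad2 probe set had 8.64 and 7.92 in GIC and 8.51 and 8.32 in non-GIC, a difference of -0.13 with overlapping groups. Those of Smad3 had 0.57 and 0.52. Smad1 and Smad5 of the BMP branch and the common Smad4 had differences between -0.13 and 0.16. Among inhibitory Smads, which block the receptors in a feedback loop, Smad7 had 9.28 and 8.92 in GIC and 9.67 and 9.81 in non-GIC (-0.64, SE 0.20, adjusted p = 0.210), and its other probe set also had -0.64. Smad6, which preferentially blocks the BMP branch, had 8.98 and 9.00 in GIC and 7.64 and 8.99 in non-GIC. Non-GIC replicate 1 alone was low for Smad6, and without it the difference was -0.0015.

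None of the 4 tested extracellular antagonists passed, and 3 had a positive and 1 a negative difference. Grem1, which sequesters BMP2 and BMP4, had 11.30 and 12.40 in GIC and 13.29 and 13.33 in non-GIC. Both GIC arrays lay below both non-GIC arrays, but they differed from each other by 1.10, and the log2 fold change of -1.46 (SE 0.38) did not pass (limma adjusted p = 0.161). Without GIC replicate 2 it was -2.004 and passed (adjusted p = 0.0283), and without GIC replicate 1 it was -0.91 (adjusted p = 0.115). Follistatin (Fst), which sequesters activins, had 9.02 and 9.04 in GIC and 7.08 and 8.44 in non-GIC (1.27, SE 0.47, adjusted p = 0.267). Its difference was 0.59 without non-GIC replicate 1. Chordin (Chrd) had one of 0.25. Nbl1, a DAN-family antagonist, had 10.79 and 9.78 in GIC and 9.17 and 10.06 in non-GIC, with overlapping groups.

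Id1, a standard readout of BMP signalling, had 12.50 and 12.81 in GIC and 10.74 and 11.73 in non-GIC. Both GIC arrays were higher, but the non-GIC arrays differed by 0.99, and the log2 fold change of 1.42 (SE 0.36) did not pass (limma adjusted p = 0.158). Id2 had 10.90 and 11.13 in GIC and 10.19 and 10.51 in non-GIC (0.66, SE 0.20, adjusted p = 0.201), and its other probe set past the filter had 0.52. Id3 had 12.72 and 12.35 in GIC and 11.66 and 12.74 in non-GIC, so non-GIC replicate 2 was the highest of the 4 arrays. Id4, an Id gene of neural progenitors, had 11.34 and 11.91 in GIC and 11.46 and 12.05 in non-GIC, and replicate 1 was lower than replicate 2 in both sublines. Tgfbi, a matrix protein induced by TGF-beta, had 8.41 and 9.01 in GIC and 7.51 and 8.04 in non-GIC (0.94, SE 0.29, adjusted p = 0.216). Its 3 other probe sets had differences between 0.72 and 1.09.

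**Figure D4:**
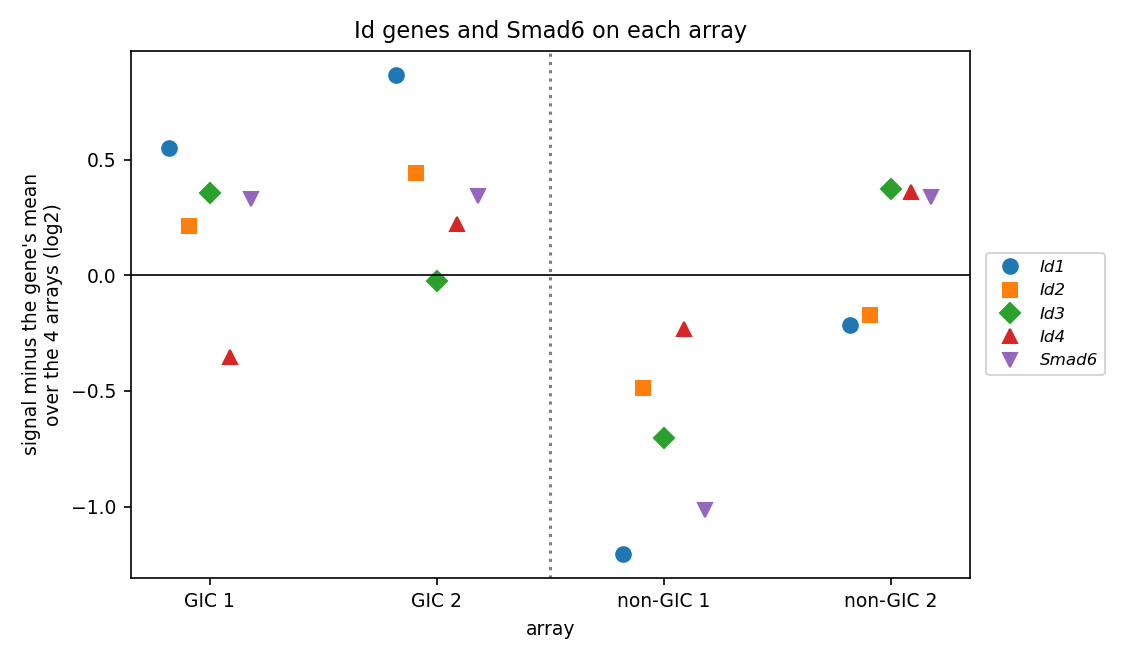
Signal of Id1, Id2, Id3, Id4 and Smad6 minus each gene's own mean over the 4 arrays (log2), for the 2 GIC arrays on the left and the 2 non-GIC arrays on the right. All 5 genes lie below their mean on non-GIC replicate 1, whereas on non-GIC replicate 2 Id3, Id4 and Smad6 lie above it.

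Replicates of a subline also differed from each other. Id1, Id2, Id3, Id4 and Smad6 were grouped after their values were seen. Between the GIC arrays 4 of these 5 genes were lower on replicate 1, Id3 being the exception, and the differences were 0.58 or less in size on the log2 scale. Between the non-GIC arrays all 5 were lower on replicate 1, by 0.32 (Id2) to 1.35 (Smad6). Id2 and Id4 differed by about as much between the GIC arrays (0.23 and 0.58) as between the non-GIC arrays (0.32 and 0.59). Over all members, GIC replicate 1 was the higher GIC array in 28 of 40 (70.0%, beside 50.7% of all tested genes), and non-GIC replicate 1 was the lower non-GIC array in 30 of 40 (75.0%, beside 48.0%). Tgfb1, Tgfb3, Grem1 and Nbl1, 4 members (10.0%, beside 3.16% of all tested genes), differed by at least 2-fold between the GIC arrays. Between the non-GIC arrays 5 did (12.5%, beside 3.02%), namely Inhbb, Fst, Smad6, Ltbp3 and Id3. Leaving out non-GIC replicate 1 took the difference to 0.93 for Id1, 0.50 for Id2 and -0.21 for Id3.

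Other genes of the pathway were read from a list of 71, of which 51 were tested. Of these, 1 rose in GIC (1.96%, beside 1.92% of all tested genes called in either direction) and none fell. It was Ccn2 (CTGF), a matricellular protein and target of TGF-beta and of YAP, which had 12.59 and 12.59 in GIC, against 10.37 and 10.66 in non-GIC (log2 fold change 2.07, SE 0.17, limma adjusted p = 0.0194). The call was lost when GIC replicate 1 or either of the non-GIC arrays was left out (adjusted p = 0.0700 to 0.114). The median over the 51 genes was 0.07. Thrombospondin 1 (Thbs1), which activates latent TGF-beta, had 13.89 and 13.52 in GIC and 12.18 and 12.63 in non-GIC (1.30, adjusted p = 0.0788). Neogenin (Neo1), a receptor for the BMP co-receptors of the RGM family, had 11.55 and 11.17 in GIC and 10.32 and 10.55 in non-GIC (0.93, adjusted p = 0.130). Msx1, a homeobox target of BMPs, had 7.79 and 7.66 in GIC and 7.18 and 7.05 in non-GIC (0.61, adjusted p = 0.132). Fkbp1a, which holds type I receptors inactive, had 13.56 and 13.70 in GIC and 13.20 and 13.11 in non-GIC (0.48, adjusted p = 0.156). The groups did not overlap for these 5 genes, which were picked by p. Over the 51 genes they did not overlap in 24 (47.1%, beside 50.4% of all tested genes). The probe sets of Neo1, Msx1 and Fkbp1a are of types that may also hybridise to other transcripts. Without such probe sets the differences were 0.93 for Neo1, 0.26 for Msx1 and 0.60 for Fkbp1a. The mean of each gene's probe sets gave 0.53, 0.43 and 0.49.

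A pair of further values was picked after they were seen. Fibrillin-2 (Fbn2), a microfibril protein that binds latent complexes and BMPs, had 10.85 and 9.09 in GIC and 7.79 and 6.34 in non-GIC, and with replicates this far apart its difference of 2.90 (SE 0.76) did not pass (limma adjusted p = 0.161). Bmper, a secreted modulator of BMPs, had 11.03 and 10.91 in GIC and 8.80 and 10.18 in non-GIC (1.48, adjusted p = 0.223), with non-GIC replicate 1 again the low array. The 10 tested ligands outside the members had differences between -0.17 and 0.17.

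**Figure D5:**
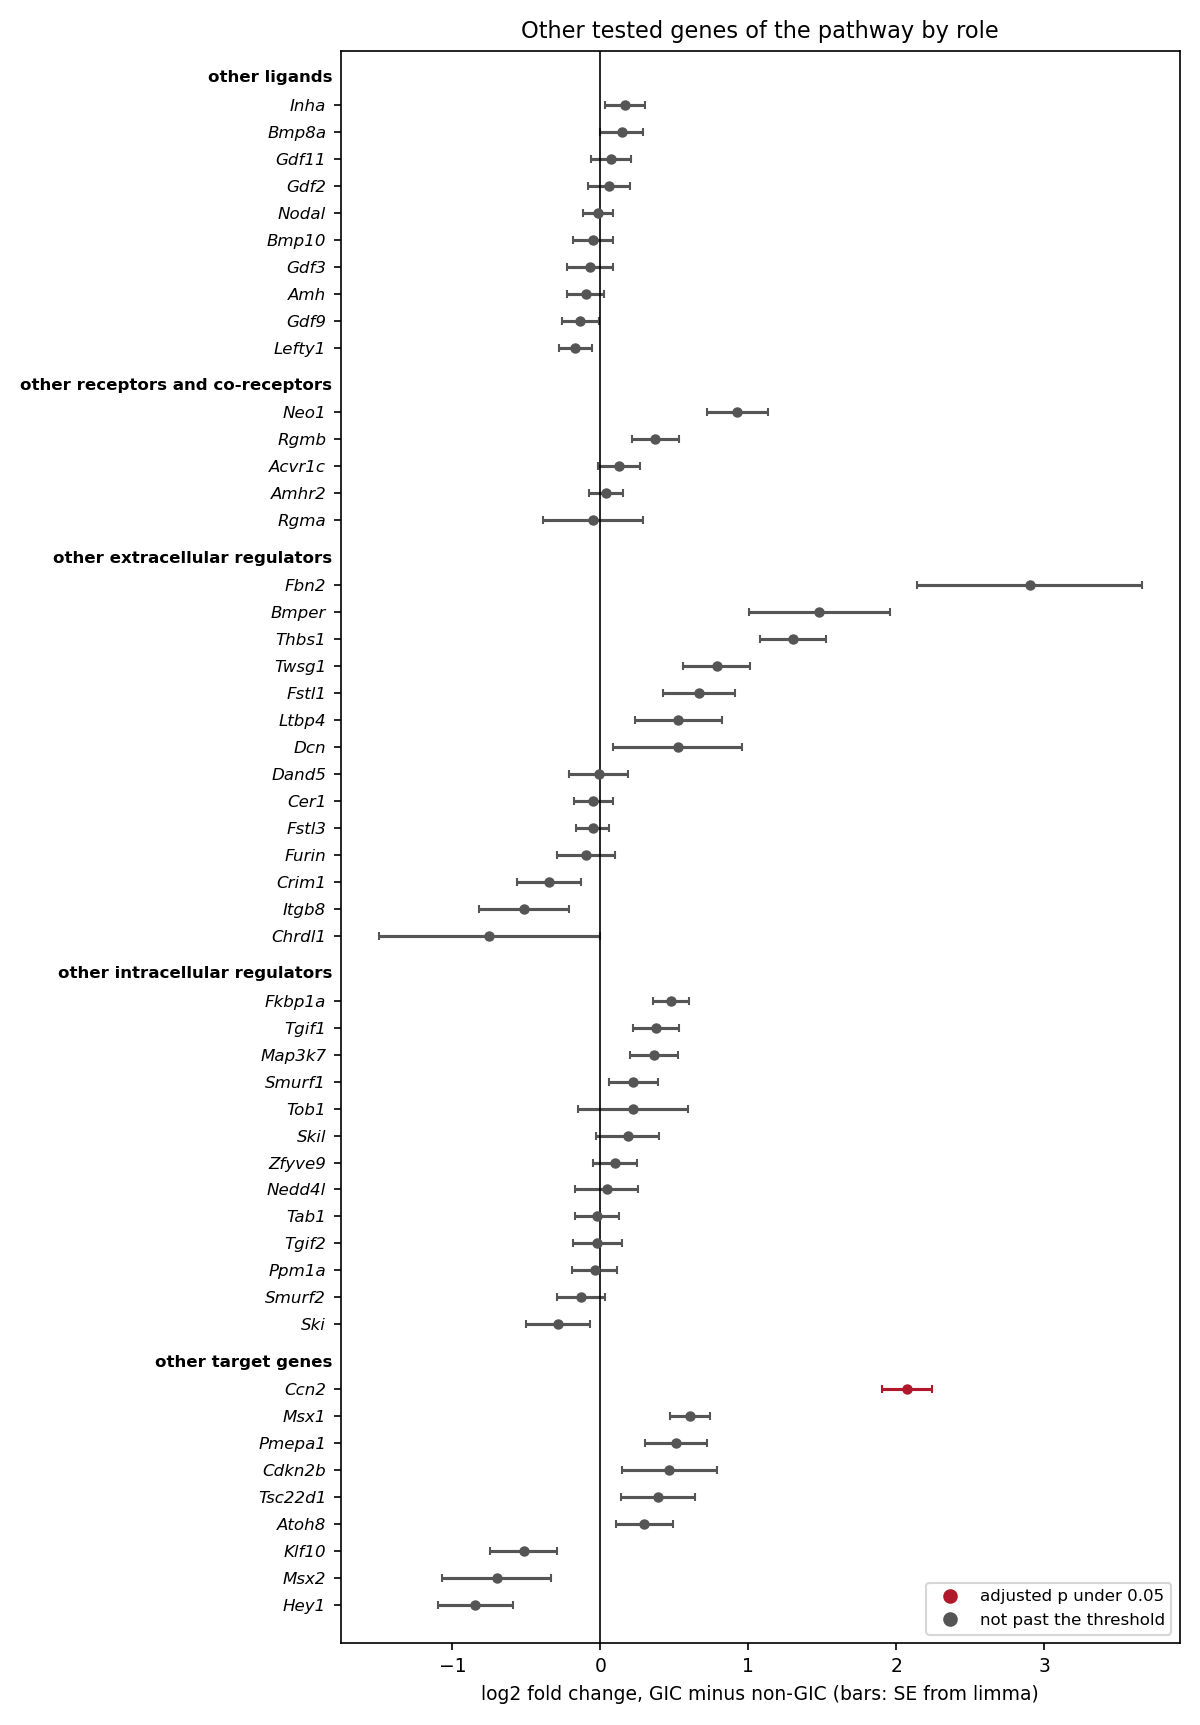
Log2 fold change (GIC minus non-GIC) of the 51 other tested genes of the pathway, grouped by role, with SE bars from limma (2 arrays per subline) and red at an adjusted p under 0.05. Ccn2 is the only red point, the other ligands sit close to 0, and Fbn2 has the largest difference with a long bar.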

How the data were processed

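RNA of 2 GIC and 2 non-GIC samples was hybridised to 1 Affymetrix array each, after biotin labelling of 5 µg of total RNA, per the labels' protocols. The deposited values, 1 for each probe set on each array, are on a log2 scale as read from their range (2.75 to 15.12). The array medians lay close together, from 6.58 to 6.63. Whether and how the authors brought the arrays to a common scale is not given in the sources used here. No detection calls were used, so no gene is called absent.

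Of 45101 probe sets, 34945 had 1 gene symbol in the platform annotation, of which 34741 were updated by Entrez identifier to assembly GRCm38.p6. The 932 with several genes, the unnamed ones and 64 controls were left out. The test of GIC minus non-GIC used lmFit and trended eBayes of limma (version 3.58.1, under R 4.3.3), without covariates, two-sided, with Benjamini-Hochberg adjustment over 13366 genes at 0.05. There were 2 residual and 2.72 prior degrees of freedom. For a single gene, an exact permutation test of 2 against 2 arrays cannot reach below p = 0.33. Figures were drawn with matplotlib 3.10.9.

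The members, the other lists and the tests were chosen with earlier results of these data known. All members are named. Values on every array are given for members that passed, for those at least 2-fold different without overlap, and for the 2 with the smallest p in each role. Of the other pathway genes, those that passed and the 5 with the smallest p are named. Alternatives covered the pairing (a replicate block), the scaling (quantile normalization or median centring), the filter (none, or the 60th percentile), the choice of probe set (their mean, or without those that may bind more than 1 transcript), eBayes (untrended or robust) and the omission of each array. A single remaining array was then taken to vary like the pair of the other subline.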

Additional observations from a re-analysis of the deposited data

How the results depend on the processing

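Direction and side of the threshold were followed for 40 members and 7 other pathway genes. Bmp2 and Tgfbr3 stayed past the threshold under every scaling, filter, probe set and eBayes choice tried. With the replicate block Bmp2 passed (limma adjusted p = 0.0389) and Tgfbr3 did not (0.0902). Acvr1b did not pass with quantile normalization (adjusted p = 0.0540), no filter (0.0555), the mean of its probe sets (0.108), robust eBayes (0.05 after rounding) or the replicate block (0.170). Signs turned only for differences near 0 in these choices: Acvr1 0.023 and Tgfbr2 0.021 with quantile normalization, and Bmpr2 -0.011 with the mean of its probe sets. Without 1 array, values ranged from -0.28 to 0.86 for Tgfb1, -0.53 to 0.45 for Inhba, -0.19 to 0.16 for Acvr1, -0.24 to 0.31 for Bmpr2, -0.28 to 0.22 for Tgfbr2, -0.11 to 0.018 for Eng, -0.34 to 0.080 for Smad4, -0.0015 to 1.35 for Smad6, -0.21 to 0.87 for Id3 and -0.43 to 0.17 for Id4. Across these omissions 0 to 2 members were higher and 0 to 1 lower (Grem1), 0 to 1 other pathway genes higher, 5 to 142 of all genes higher and 7 to 46 lower, and the members' median lay between 0.078 and 0.46.

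Same-numbered arrays tended to deviate in opposite directions (correlation -0.324 across genes, which are not independent). This correlation cannot decide whether the numbers pair the arrays, since differences particular to a subline could outweigh a shared one. The pairing itself was not tested. With the replicate block 1 member (Bmp2) and 0 other pathway genes were higher, and 21 of all genes were higher and 8 lower. A crossed replicate block, added after seeing the data, gave 5 members and 3 other pathway genes higher, and 457 of all genes higher and 228 lower. The number of arrays limits every value. Signals near or below the filter level, such as Bmp2 in non-GIC, can understate a difference.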

Other observations

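Bmpr1b, a type I BMP receptor, lay below the filter level on all arrays and was not tested. Its reported probe set had 5.56 and 5.64 in GIC and 4.94 and 5.03 in non-GIC, and another had 4.31 and 4.32 in GIC and 3.55 and 3.56 in non-GIC. The third had 4.85 and 5.16 in GIC and 5.20 and 4.99 in non-GIC, with overlapping groups. Of the other members below the filter, the BMP antagonist Nog had 5.34 and 5.59 in GIC and 5.69 and 5.60 in non-GIC, and Smad9, the remaining Smad of the BMP branch, had 5.19 and 5.48 in GIC and 5.52 and 5.62 in non-GIC.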
